A study of Mus musculus with 16 samples.

Results

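Imprinted genes are expressed mainly from the copy inherited from either the mother or the father. Those active on the paternal copy often favour growth of the embryo and its extra-embryonic tissues, and those active on the maternal copy often restrain it. The levels of 10 such growth regulators, H19, Peg3, Plagl1, Dlk1, Meg3, Cdkn1c, Grb10, Mest, Phlda2 and Peg10, were examined in mouse embryos and yolk sacs by genotype and tissue. The members were the probes whose annotated symbol is one of these names. Of the 10 genes, 9 had such a probe, with 22 of the 45281 probes on the array, and 8 passed the filter on dim probes, with 15 probes. H19 is not analysed here. In all, 19057 genes were named on the array and 11334 were tested.

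The study asked what loss of rudhira (Bcas3), a gene known for its part in blood vessel formation, does to RNA levels in the conceptus. C57BL/6J mice heterozygous for rudhira were mated, and conceptuses were taken at 9.5 days post coitum (dpc). Wild-type conceptuses (+/+) were compared with homozygous mutants (-/-), which carried the deletion of exon 6 on both copies. The labels give wild types normal growth and vessels, and mutants retarded growth and abnormal vessels. The embryo and the yolk sac of a conceptus were separated, so the 8 RNA samples came from 4 conceptuses, and each of the 4 groups of genotype and tissue held 2 RNA samples. Each RNA sample was measured on 2 Illumina MouseWG-6 v2 arrays, which were averaged, so n is 2 per group throughout. No litter or sex is given in the sources used here, and genotype and growth delay cannot be told apart. Both tissues are mixtures, so fewer cells of a type and less RNA per cell cannot be told apart.

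The signal, a brightness on a linear scale, was dimmer on the mutant yolk sac arrays, with a 75th percentile of 67 to 74.8, than on those of wild-type yolk sacs, at 97.6 to 141, and those of embryos, at 109 to 126. Levels given as log2 are after quantile normalization, which removes that difference. The Bcas3 signal was 331 and 391 in wild-type embryos, 270.4 and 664 in mutant embryos, 759 and 1244 in wild-type yolk sacs, and 234 and 278 in mutant yolk sacs. The library labelled mutant embryo 2 had more Bcas3 signal than both wild-type embryos. Each member difference of the main fit that includes mutant embryos is therefore also given without it. Medians, most counts, intervals, and values of further probes and of other genes include it. Where the Bcas3 probe lies relative to exon 6 is not given in the sources used here, so the probe may not check the deletion. The 12 visceral endoderm markers were detected in every group, and the mean log2 level was 12.43 to 12.66 in yolk sacs. In the embryos it was 5.59 and 9.76 in wild type and 8.41 and 9.01 in mutants. Wild-type embryo 1 therefore stood well below the other embryos on these markers. Of 7 neural markers, 7 were detected in wild-type embryos and 2 in wild-type yolk sacs.

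Sequences around an annotated start of 5 members whose level differed between the tissues are shown first. Those printed for Phlda2, Dlk1 and Mest lie inside the annotated span of the gene. RefSeq promoters (GRCm38.p6, 250 bases before to 50 after a start) were found for 7 of the 10 members, 11 promoters in all. Those of Phlda2 (chr7:143502475-143502774, minus strand), Dlk1 (chr12:109452573-109452872, plus strand) and Meg3 (chr12:109540746-109541045, plus strand) belong to genes that were higher in yolk sac. Those of Grb10 (chr11:12037371-12037670, minus strand) and Mest (chr6:30737800-30738099, plus strand) belong to genes that were higher in the embryo. Capitals mark matches, on either strand, to 5 short motifs, and adjoining or overlapping matches run together. The motifs were TATAAA, a core promoter element, TGACGTCA, the cyclic AMP response element, and CCAAT, which is bound by nuclear factor Y. The other two were GATAAG, a motif of the zinc finger factors of blood cells and endoderm, and GGGCGG, which is bound by Sp factors.
Phlda2: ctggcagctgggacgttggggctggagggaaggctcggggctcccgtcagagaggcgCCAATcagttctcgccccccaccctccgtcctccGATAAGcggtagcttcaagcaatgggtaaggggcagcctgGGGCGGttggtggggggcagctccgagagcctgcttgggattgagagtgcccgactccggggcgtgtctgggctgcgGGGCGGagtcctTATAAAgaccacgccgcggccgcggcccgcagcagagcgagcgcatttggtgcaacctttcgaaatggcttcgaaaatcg
Dlk1: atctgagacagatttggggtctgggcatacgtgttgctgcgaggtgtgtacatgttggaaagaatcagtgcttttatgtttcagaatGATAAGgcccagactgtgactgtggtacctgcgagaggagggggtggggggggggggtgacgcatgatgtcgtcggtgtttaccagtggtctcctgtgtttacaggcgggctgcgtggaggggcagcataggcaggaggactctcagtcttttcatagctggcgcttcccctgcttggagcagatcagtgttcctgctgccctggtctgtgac
Meg3: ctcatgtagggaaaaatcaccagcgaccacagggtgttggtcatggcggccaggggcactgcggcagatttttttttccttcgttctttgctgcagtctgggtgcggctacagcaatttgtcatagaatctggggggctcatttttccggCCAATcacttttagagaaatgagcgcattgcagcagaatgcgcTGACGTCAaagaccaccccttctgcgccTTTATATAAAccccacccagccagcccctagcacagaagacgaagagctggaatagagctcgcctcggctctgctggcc
Grb10: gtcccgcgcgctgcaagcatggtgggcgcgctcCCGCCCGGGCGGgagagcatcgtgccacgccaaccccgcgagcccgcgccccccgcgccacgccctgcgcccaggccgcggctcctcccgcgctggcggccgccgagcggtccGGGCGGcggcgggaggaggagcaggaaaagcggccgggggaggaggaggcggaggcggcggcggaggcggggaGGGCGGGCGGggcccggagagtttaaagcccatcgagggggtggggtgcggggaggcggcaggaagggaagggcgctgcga
Mest: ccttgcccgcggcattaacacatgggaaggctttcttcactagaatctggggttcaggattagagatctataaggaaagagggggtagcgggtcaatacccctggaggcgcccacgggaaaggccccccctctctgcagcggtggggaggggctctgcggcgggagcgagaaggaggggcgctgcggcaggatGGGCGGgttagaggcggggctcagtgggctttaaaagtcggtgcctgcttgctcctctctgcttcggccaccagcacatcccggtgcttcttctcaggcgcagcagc
The Phlda2 promoter held TATAAA once, CCAAT once, GATAAG once and GGGCGG in 2 places. The printed Meg3 promoter held TATAAA in 2 overlapping places, TGACGTCA once and CCAAT once. The printed Grb10 promoter held 5 matches to GGGCGG, some of which overlap, and 45 CG dinucleotides, more than 98.1% of all promoters. Another Grb10 promoter (chr11:12027922-12028221, minus strand) held 0 matches and 9 CG dinucleotides, and another Meg3 promoter (chr12:109545148-109545447, plus strand) held 0 matches and 1 CG dinucleotide. The printed Mest promoter held 1 GGGCGG and that of Dlk1 1 GATAAG. Another Mest promoter, at the start of the annotated span (chr6:30733256-30733555, plus strand), also held 1 GGGCGG. Over all 32851 promoters of this length, TATAAA was found in 13.6%, TGACGTCA in 1.79%, CCAAT in 37.4%, GATAAG in 7.44% and GGGCGG in 35.7%. The letters of these motifs are shown as a description only.

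Yolk sac and embryo were set side by side first, since this was where the members differed. In wild types, Phlda2, Peg10, Dlk1 and Meg3 were higher in the yolk sac, and Grb10 and Mest were higher in the embryo. Peg3 and Cdkn1c did not pass the test. Thus 6 of 8 members passed, 4 higher and 2 lower in yolk sac (limma, Benjamini-Hochberg adjusted p under 0.05), where 69.5% of all tested genes passed, 33.2% higher and 36.2% lower. The share of members that passed is close to that of all genes. The median difference was 0.38 on the log2 scale over the members and -0.03 over all genes, and the median size regardless of sign was 0.91 over the members and 0.60 over all genes. In mutants 7 of 8 passed, 4 higher and 3 lower, against 69.3% of all genes (32.8% higher, 36.5% lower). Without the library labelled mutant embryo 2 the count in mutants was 4 of 8, and it was 4 without mutant embryo 1, 4 without mutant yolk sac 1 and 6 without mutant yolk sac 2.

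**Figure D1:**
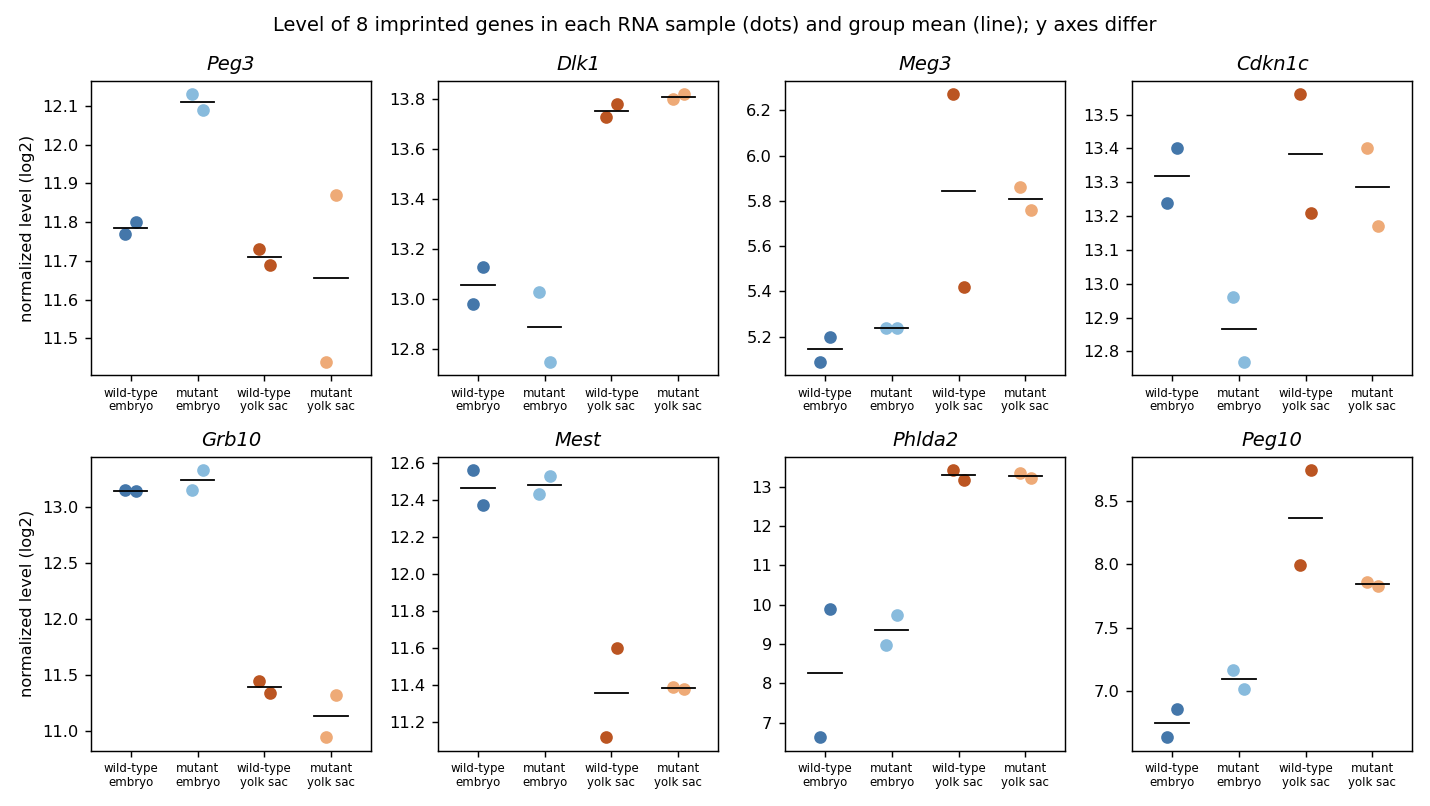
Normalized level (log2) of each of the 8 tested members on the y axis, with 1 dot per RNA sample and a line at the group mean, for wild-type and mutant embryos and yolk sacs. The y axes differ between panels. Phlda2, Peg10, Dlk1 and Meg3 sit higher in yolk sacs, Grb10 and Mest sit higher in embryos, and the Phlda2 dots of the wild-type embryos lie far apart.

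Among the genes that restrain growth, Phlda2 differed most between the tissues. Phlda2 is a maternally expressed gene that limits the size of the placenta, and it lies at chromosome 7, 143501545 to 143503145 (GRCm38.p6). Its signal was 98.8 and 935 in wild-type embryos, 503 and 909 in mutant embryos, 10847 and 11988 in wild-type yolk sacs, and 8784 and 8584 in mutant yolk sacs. Every yolk sac stood above every embryo, and the embryos spread widely. The log2 level was 8.26 ± 2.29 (SD, n = 2) in wild-type embryos and 13.3 ± 0.169 (SD, n = 2) in wild-type yolk sacs. The difference between wild-type tissues was 5.04 on the log2 scale (SE 0.87, 33-fold, limma adjusted p = 0.00136). In mutants it was 3.92 (SE 0.87, 15.2-fold, limma adjusted p = 0.00494), or 4.30 (adjusted p = 0.0179) if the library labelled mutant embryo 2 was left out. The size of the wild-type difference rested on the embryos: it was 6.67 without wild-type embryo 2 and 3.42 without wild-type embryo 1, and passed the test both times.

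The 4 embryos ranked the same way by Phlda2 signal as by the visceral endoderm markers. The sum of the normalized levels of the 12 markers, taken back to a linear scale, was 724 and 21711 in wild-type embryos, 9013 and 13288 in mutant embryos, and 124420.5 to 136257 in the 4 yolk sacs. The lowest Phlda2 signal and the lowest marker sum both belonged to wild-type embryo 1, and the highest of each among embryos to wild-type embryo 2. Slc22a18, a membrane transporter gene that is also maternally expressed and whose annotated start lies 27.8 kb from that of Phlda2, had signals of 1.55 and 56.6 in wild-type embryos and 24.6 and 36.5 in mutant embryos. In yolk sacs its signal was 917 and 1176 in wild type and 741 and 739.8 in mutants. Slc22a18 was detected on 2 of the 4 arrays of wild-type embryos. The part of visceral endoderm RNA in the Phlda2 and Slc22a18 values of the embryos was not tested.

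**Figure D2:**
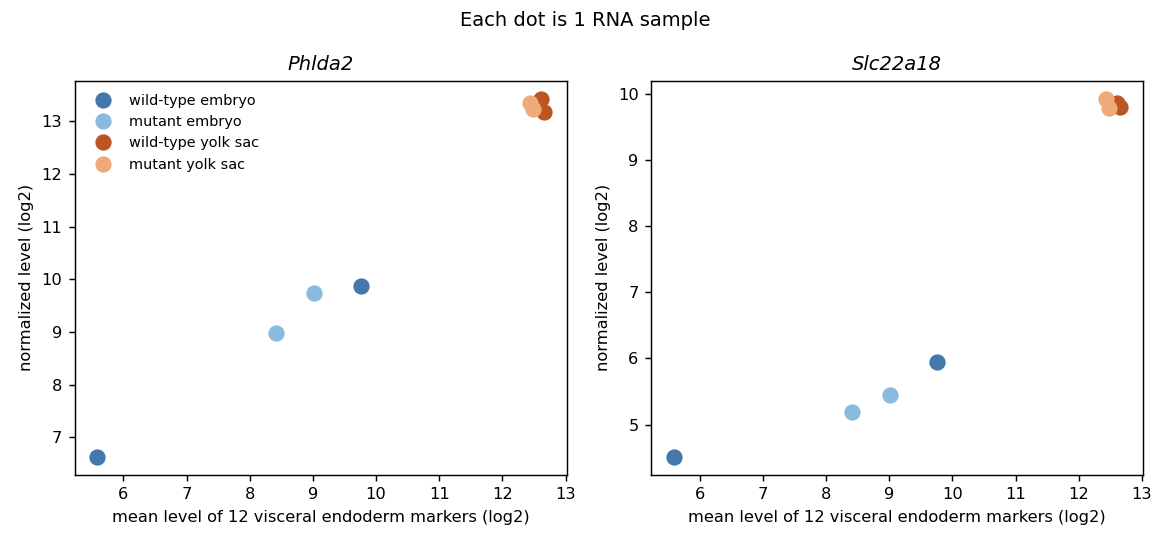
Normalized level (log2) of Phlda2 (left) and Slc22a18 (right) on the y axes against the mean log2 level of the 12 visceral endoderm markers on the x axis, with 1 dot per RNA sample. Wild-type embryo 1, at a marker mean of 5.59, is lowest in both panels, and the yolk sacs lie together at 12.43 to 12.66.

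Cdkn1c, a cyclin-dependent kinase inhibitor active on the maternal copy, lies at chromosome 7, 143458339 to 143461059. Its signal was 9576 and 10716 in wild-type embryos, 7863 and 7423 in mutant embryos, 11645 and 12162 in wild-type yolk sacs, and 9274 and 8248 in mutant yolk sacs. The groups lay close together, and on the log2 scale the mutant embryos, at 12.96 and 12.77, were the lowest samples. The wild-type tissues differed by 0.07 (SE 0.15, limma adjusted p = 0.704). The mutant tissues differed by 0.42, with yolk sac higher (SE 0.15, limma adjusted p = 0.041), and by 0.32 without the library labelled mutant embryo 2, which no longer passed (adjusted p = 0.195). The call was also lost without mutant embryo 1 (0.52, adjusted p = 0.0575) and without mutant yolk sac 1 (0.30, adjusted p = 0.189).

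Grb10 encodes an adaptor that binds the insulin and insulin-like growth factor receptors and restrains growth, and it lies at chromosome 11, 11930499 to 12037428. Its signal was 8866 and 8744 in wild-type embryos, 8962 and 10975 in mutant embryos, 2780.1 and 3404 in wild-type yolk sacs, and 1561 and 2277 in mutant yolk sacs. All 4 embryos were above all 4 yolk sacs. Yolk sac minus embryo was -1.76 on the log2 scale in wild types (SE 0.14, 3.38-fold lower in yolk sac, limma adjusted p = 2.17e-05). In mutants it was -2.11 (SE 0.14, limma adjusted p = 1.15e-05), or -2.02 without the library labelled mutant embryo 2 (adjusted p = 0.000238). A second detected Grb10 probe gave -2.56 in wild types and -2.15 in mutants when all kept probes were tested, and both passed (adjusted p = 9.93e-06 and 2.58e-05). Another Grb10 probe was detected on 0 of 16 arrays. Ddc, the aromatic amino acid decarboxylase gene whose annotated start is 116 kb from that of Grb10, ran the other way and was 2.03 higher in wild-type yolk sac on the log2 scale (SE 0.14, limma adjusted p = 1.01e-05).

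Among the paternally expressed genes, Peg10, a gene derived from a retrotransposon and needed for the mouse placenta, lies at chromosome 6, 4747306 to 4760517. Its signal was 100 and 116 in wild-type embryos, 141 and 139 in mutant embryos, 235 and 554 in wild-type yolk sacs, and 152 and 163 in mutant yolk sacs. On this brighter Peg10 probe, wild-type yolk sac 2 was far above the other yolk sacs. The level was 1.62 higher on the log2 scale in wild-type yolk sac than in wild-type embryo (SE 0.22, 3.06-fold, limma adjusted p = 0.000409). In mutants it was 0.75 higher (SE 0.22, 1.68-fold, limma adjusted p = 0.0184). The mutant call was lost without any single mutant library, while the difference stayed at 0.67 to 0.82. It was 0.67 when the library labelled mutant embryo 2 was left out (adjusted p = 0.0907), 0.82 without mutant embryo 1 (0.0504), 0.73 without mutant yolk sac 1 (0.0703) and 0.76 without mutant yolk sac 2 (0.0613). The second Peg10 probe was not detected on any embryo array and was detected on all 8 yolk sac arrays. Against the lowest detected signal, it was at least 1.71-fold higher in wild-type and at least 1.68-fold higher in mutant yolk sac. That probe passed the filter only through the yolk sacs, so a difference there follows from the choice.

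Peg10 is abundant in trophoblast, so markers of that tissue were examined beside it. Of the 12 trophoblast and placenta genes listed, 9 had a named probe and 4 were detected. The summed normalized level of the 9 in yolk sacs was 602 and 1380.4 for wild types against 2512 and 1863 for mutants, and embryos had 259 to 578. Tpbpa, Syna, Synb, Ctsq and Psg21, which mark the spongiotrophoblast, syncytium and other placental cells, were not detected in any group. The maternal decidua markers summed in yolk sacs to 215 and 874 for wild types against 567 and 806 for mutants, and in embryos to 99.4 to 331, and Prl3c1 and Pgr were not detected. Wild-type yolk sac 2 was above wild-type yolk sac 1 for the brighter Peg10 probe and for both sums. The second Peg10 probe had the opposite order, at log2 levels of 6.14 and 5.7 in wild-type yolk sacs. It was 5.96 and 5.65 in mutant yolk sacs, which overlapped the wild types. On the brighter probe the mutant yolk sacs had less Peg10 than either wild-type yolk sac, while their trophoblast marker sum was higher. Of the trophoblast genes detected in wild-type yolk sacs, only Prl2c2 was higher in the second, at log2 levels of 6.76 and 9.87. Plac1 went from 8.35 to 8.14 and Prl7a1 from 4.98 to 4.93. In mutant yolk sacs Prl2c2 was 10.69 and 10.09, and Plac1 9.3 and 9.26. Of the decidua genes, Prl8a2 went from 7.12 to 9.56 and Htra3 from 5.02 to 6.3 between the wild-type yolk sacs. The 5 mesenchyme markers summed in yolk sacs to 4482 and 5331 for wild types against 2681 and 2309 for mutants. This sum was highest in wild-type yolk sac 2, as the brighter Peg10 probe was and the second was not. The sum was 2673 to 3249 in embryos. The mean log2 level of the 5, by contrast, was 8.04 to 8.42 in yolk sacs and 8.63 to 9.24 in embryos. Col1a1, the brightest of them in yolk sacs, was 11.65 and 11.95 for wild types against 10.45 and 10.13 for mutants. Col3a1 was 9.57 and 9.78 against 9.56 and 8.77. Pdgfra ran the other way, at 8.22 and 8.17 against 8.46 and 9.01, Twist1 overlapped, and Prrx1 was not detected in yolk sacs. The part of such cells in the Peg10 values was not tested.

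Dlk1 and Meg3 are neighbours on chromosome 12 that are imprinted in opposite directions. Dlk1, paternally expressed, encodes a transmembrane protein of the Notch ligand family and lies at 109452485 to 109463336. Meg3, maternally expressed, is a long noncoding RNA at 109540996 to 109571729. The Dlk1 signal was 8020.4 and 8678 in wild-type embryos, 8249.9 and 7335 in mutant embryos, 13033 and 17230.1 in wild-type yolk sacs, and 11796 and 12231 in mutant yolk sacs. Every yolk sac was above every embryo. The log2 level was 0.70 higher in wild-type yolk sac (SE 0.12, 1.63-fold, limma adjusted p = 0.0011) and 0.92 higher in mutant yolk sac (SE 0.12, 1.90-fold, limma adjusted p = 0.000272). The latter was 0.78 on leaving out the library labelled mutant embryo 2 (adjusted p = 0.00209). The second Dlk1 probe gave 0.86 and 1.17, and both passed (adjusted p = 0.000719 and 0.000149).

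The Meg3 signal was near the detection limit, at 24 and 27.1 in wild-type embryos, 26.5 and 28.8 in mutant embryos, 59.7 and 31.5 in wild-type yolk sacs, and 27.2 and 26.6 in mutant yolk sacs. It was detected on 2 of 4 arrays of wild-type embryos, 3 of 4 of mutant embryos and all arrays of yolk sacs. A further Meg3 probe was detected on 0 arrays. Another was detected on 2 arrays, all of wild-type yolk sacs. Its log2 levels overlapped in mutants, at 4.76 and 4.65 in yolk sacs and 4.6 and 4.79 in embryos. In wild types they did not, at 5.18 and 4.84 in yolk sacs and 4.61 and 4.59 in embryos. On the tested probe, the mutant signals before normalization overlapped between the tissues. Its normalized log2 levels in yolk sacs, at 5.42 to 6.27, were above the embryos, at 5.09 to 5.24, in both genotypes. The difference was 0.70 in wild types (SE 0.24, limma adjusted p = 0.032) and 0.57 in mutants (SE 0.24, limma adjusted p = 0.0659), with the same 0.57 if the library labelled mutant embryo 2 was left out (adjusted p = 0.167). The wild-type call was lost without wild-type embryo 1 (0.64, adjusted p = 0.108), without wild-type embryo 2 (0.75, adjusted p = 0.0666) and without wild-type yolk sac 1 (0.27, adjusted p = 0.0721).

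Of 7 listed imprinted genes in this stretch of chromosome 12, Dlk1 and Meg3 included, 5 were tested. Of these, 5 passed as higher in wild-type yolk sac (33.2% of all genes) and 3 in mutant yolk sac (32.8% of all genes). The neighbours were chosen after the values were seen. Dio3, which encodes the deiodinase that inactivates thyroid hormone, was 2.55 higher on the log2 scale in wild-type yolk sac (SE 0.23, limma adjusted p = 4.11e-05). Its signal in wild-type embryos was 23 and 46.5, detected on 3 of 4 arrays, so that their mean lies partly at background. Rian, a noncoding RNA, was 0.80 higher in wild-type yolk sac (SE 0.16, limma adjusted p = 0.00251). Rtl1, a retrotransposon-derived gene, was detected on no embryo array, and was at least 1.05-fold higher in wild-type and at least 1.24-fold higher in mutant yolk sac. It passed the filter only through the yolk sacs, so its place in both counts follows from the choice. In mutants Rian did not pass (0.38, limma adjusted p = 0.0589). On chromosome 7 the members and listed imprinted genes within 1 Mb of Phlda2, of which 11 were tested with Phlda2 included, were mixed in wild types. Of these, 3 were higher in yolk sac (Phlda2, Slc22a18 and Tspan32), against 33.2% of all genes. Another 3 were lower (Cd81, Tssc4 and Nap1l4), against 36.2% of all genes, and 5 did not pass. Slc22a18 was 4.61 higher on the log2 scale (SE 0.39, limma adjusted p = 3e-05), with wild-type embryos detected on 2 of 4 arrays, so that their mean lies partly at background. By contrast, Nap1l4, 12 kb from Phlda2 on its other side, gave -0.72 (SE 0.09, limma adjusted p = 0.000199).

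**Figure D3:**
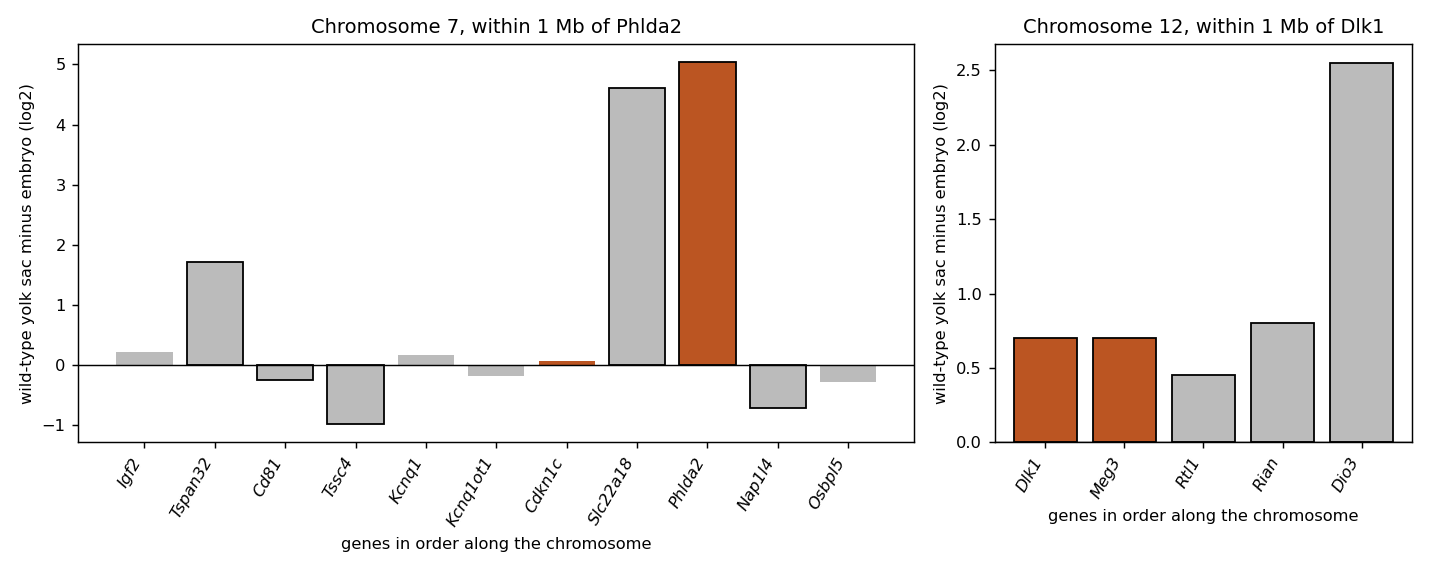
Wild-type yolk sac minus embryo (log2, y axis) for the tested imprinted genes within 1 Mb of Phlda2 on chromosome 7 (left) and of Dlk1 on chromosome 12 (right), in order along the chromosome. Orange bars are members, grey bars other imprinted genes, and black outlines mark an adjusted p under 0.05. All 5 bars on chromosome 12 are above 0, while those on chromosome 7 go both ways.

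Mest, paternally expressed and encoding an enzyme of the hydrolase family, lies at chromosome 6, 30733506 to 30748466. Its signal was 6124 and 5210 in wild-type embryos, 5536 and 6371 in mutant embryos, 2234 and 4193 in wild-type yolk sacs, and 2262 and 2385 in mutant yolk sacs. All embryos were above all yolk sacs, and the wild-type yolk sacs were spread widest. Yolk sac minus embryo was -1.11 on the log2 scale in wild types (SE 0.16, 2.16-fold lower in yolk sac, limma adjusted p = 0.000494) and -1.10 in mutants (SE 0.16, limma adjusted p = 0.000545). Leaving out the library labelled mutant embryo 2 gave -1.05 in mutants (adjusted p = 0.00593). The other Mest probes gave -1.02 and -1.11 in wild types and -1.37 and -1.49 in mutants, and all passed. Copg2, which overlaps the end of Mest and is imprinted in the opposite direction in some tissues, gave -0.43 in wild types (SE 0.14, limma adjusted p = 0.0255). Strand-specific detection by the Copg2 and Mest probes is not given in the sources used here.

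Peg3, a paternally expressed zinc finger gene, lies at chromosome 7, 6703892 to 6730462. Its signal was 3381 and 3375 in wild-type embryos, 4388 and 4629 in mutant embryos, 3431 and 4349 in wild-type yolk sacs, and 2294 and 3410.2 in mutant yolk sacs. The wild-type tissues were close, and the mutant yolk sacs differed from each other. Yolk sac minus embryo was -0.07 in wild types (SE 0.14, limma adjusted p = 0.654). Under median scaling, where the median of all genes was 0.11 instead of -0.03, it was 0.28. In mutants it was -0.46 (SE 0.14, limma adjusted p = 0.02), or -0.48 (adjusted p = 0.0654) if the library labelled mutant embryo 2 was left out. The call was also lost without mutant embryo 1 (-0.44, adjusted p = 0.0829) and without mutant yolk sac 1 (-0.24, adjusted p = 0.0691). The further kept Peg3 probes gave -0.26 and -0.77 in mutants when all kept probes were tested, and neither passed (limma adjusted p = 0.15 and 0.129). In wild types they gave -0.13 and -0.71, and neither passed (limma adjusted p = 0.461 and 0.154). Plagl1, a paternally expressed zinc finger gene at chromosome 10, 13090832 to 13131694, had 3 probes. The sample signals of these probes ran from -5.15 to 10.9, only 1 probe was detected, on 1 of 16 arrays, and none was tested.

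Igf2, the paternally expressed growth factor next to H19, was bright everywhere, with signals of 20465 and 21256 in wild-type embryos, 22279 and 23395 in mutant embryos, 25254 and 26143 in wild-type yolk sacs, and 19885 and 19685 in mutant yolk sacs. The brightest probe of an array reached 29165.3 to 33696, so the scale above Igf2 was short. Wild-type yolk sac minus embryo was 0.22 (SE 0.09, limma adjusted p = 0.0756). It passed under median scaling (0.39, adjusted p = 0.0236), with an offset of 50 (0.22, adjusted p = 0.042), with no filter on dim probes (0.22, adjusted p = 0.0449) and with a trended prior (0.22, adjusted p = 0.0178). In mutants it was 0.04 (limma adjusted p = 0.747), or 0.08 (adjusted p = 0.587) when the library labelled mutant embryo 2 was left out.

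**Figure D4:**
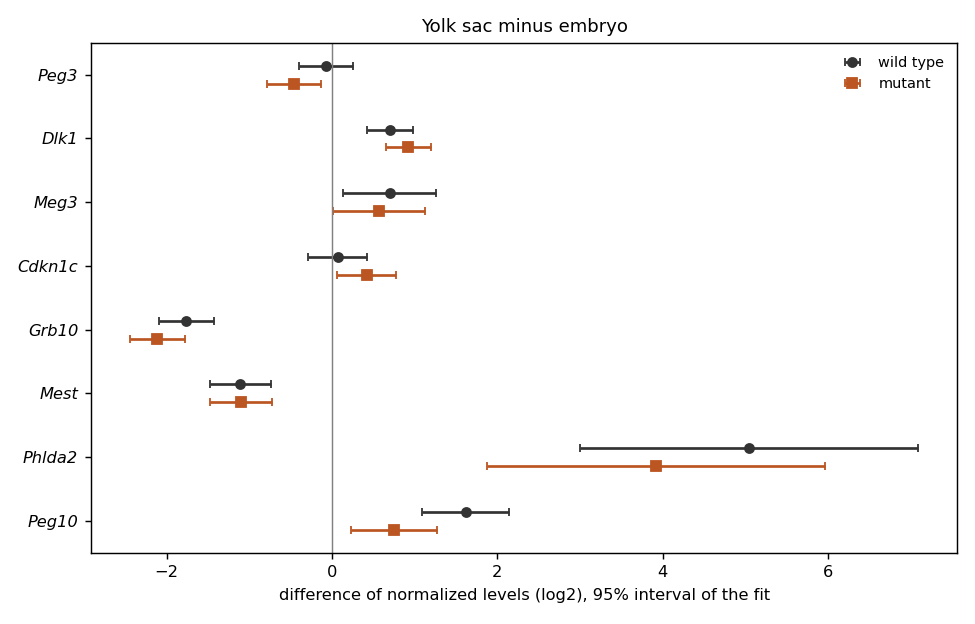
Yolk sac minus embryo (log2, x axis) for each tested member, with the 95% interval of the fit as a bar, in wild types (circles) and mutants (squares). Intervals of both genotypes lie above 0 for Dlk1, Meg3, Phlda2 and Peg10 and below 0 for Grb10 and Mest, and the Phlda2 intervals are the widest.

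The comparison of mutant with wild type asked whether loss of rudhira moved these growth regulators. In the yolk sac 0 of 8 members passed (limma, adjusted p from 0.24 to 0.993), where 1.33% of all tested genes passed, and 0 of 8 had an unadjusted p under 0.05, as 20.9% of all genes did. The differences ran from -0.52 to 0.06 on the log2 scale, with a median of -0.05 against 0 over all genes. Samples of both genotypes did not overlap for 3 members, with Dlk1 higher (23.8% of all genes) and Grb10 and Peg10 lower in mutants (24.1%), against 47.9% of all genes in either direction. Peg10 gave -0.52 (SE 0.22, 95% interval -1.04 to 0.00, limma adjusted p = 0.24), with -0.90 to -0.15 when a library was left out. Its second probe gave -0.12 when all kept probes were tested (SE 0.16, limma adjusted p = 0.746), and its samples overlapped. Grb10 gave -0.26 (SE 0.14, 95% interval -0.59 to 0.07, limma adjusted p = 0.335), while its second probe gave 0.22 when all kept probes were tested (adjusted p = 0.511).

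Mest gave 0.03 (SE 0.16, 95% interval -0.34 to 0.40, limma adjusted p = 0.947). Its other probes disagreed with that value, at -0.46 and -0.45 (SE 0.10 and 0.09, adjusted p = 0.0829 and 0.0743 when all kept probes were tested). The signals of the brighter of these probes were 2456 and 3658 in wild-type yolk sacs and 1579 and 1564 in mutant yolk sacs. The intervals for the remaining members were -0.38 to 0.27 for Peg3, -0.22 to 0.33 for Dlk1, -0.60 to 0.52 for Meg3 and -0.46 to 0.25 for Cdkn1c. For Phlda2 the interval was -2.07 to 2.02, because the fit shares 1 spread over the groups and the wild-type embryos were far apart. The yolk sac levels of Phlda2 themselves were close, at 13.42 and 13.18 in wild types and 13.34 and 13.22 in mutants.

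In the embryo, too, 0 of 8 members passed (limma, adjusted p from 0.267 to 0.99), where 2.13% of all tested genes passed, and 2 of 8, Cdkn1c and Peg3, had an unadjusted p under 0.05, as 12.5% of all genes did. The median difference was 0.09 against 0 over all genes. Samples did not overlap for 4 members, with Peg3, Meg3 and Peg10 higher (25.2% of all genes) and Cdkn1c lower in mutants (26.7%), against 51.9% of all genes in either direction. Cdkn1c gave -0.45 (SE 0.15, 95% interval -0.81 to -0.10, limma adjusted p = 0.267), or -0.36 (adjusted p = 0.99) if the library labelled mutant embryo 2 was left out. Peg3 gave 0.33 (SE 0.14, limma adjusted p = 0.394) with levels of 11.77 and 11.80 in wild types and 12.13 and 12.09 in mutants, and 0.35 without that library (adjusted p = 0.989). Peg10 gave 0.35 (SE 0.22, limma adjusted p = 0.613), and 0.42 without that library (adjusted p = 1). Dlk1 gave -0.16, Meg3 0.09, Grb10 0.09 and Mest 0.02, and without that library they gave -0.02, 0.09, 0.00 and -0.04, where the direction of Mest and, at a value of 0.00, of Grb10 turned.

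Markers of embryonic tissues also differed between these embryos. The summed normalized level of 7 neural markers was 2267 and 2339 in wild-type embryos and 1293 and 1086 in mutant embryos. The primitive erythroid markers summed to 71354 and 72133 in wild-type embryos, 63647 in mutant embryo 1 and only 33529.7 in the other library, labelled mutant embryo 2. Their part in the Cdkn1c and Peg3 values was not tested.

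Phlda2 in the embryo turned on the choice of wild-type sample. With all samples the mutants were 1.10 above the wild types on the log2 scale (SE 0.87, limma adjusted p = 0.695). Without wild-type embryo 2 the difference was 2.72 (limma adjusted p = 0.00902), the only setting in which a member passed in a genotype comparison of the embryos. Without wild-type embryo 1 it was -0.53, and 0.72 (adjusted p = 1) when the library labelled mutant embryo 2 was left out. The series design names only wild-type embryo 2 and mutant embryo 1, and with these it was -0.90. As above, wild-type embryo 1 had the lowest visceral endoderm marker sum, 724 against 9013 to 21711 in the other embryos.

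The genotype effects were not shown to differ between the tissues for any member: 0 of 8 passed the interaction test (limma, adjusted p from 0.206 to 0.984), where 0.335% of all genes passed, and 1 of 8, Peg10, had an unadjusted p under 0.05, as 18.7% of all genes did. The same test covers the difference of the tissue effect between genotypes. It was 0.35 for Cdkn1c (SE 0.22, limma adjusted p = 0.432) and -0.38 for Peg3 (SE 0.20, limma adjusted p = 0.343), the members that passed between tissues in mutants and did not in wild types. Peg10 gave -0.87 (SE 0.32, 95% interval -1.61 to -0.13, limma adjusted p = 0.206). Phlda2 gave -1.12 (SE 1.24, limma adjusted p = 0.67), and -2.74 without wild-type embryo 2 (limma adjusted p = 0.0299). When the library labelled mutant embryo 2 was left out, the interaction was 0.25 for Cdkn1c, -0.40 for Peg3, -0.94 for Peg10 and -0.74 for Phlda2 (adjusted p = 0.723, 0.53, 0.392 and 0.872).

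**Figure D5:**
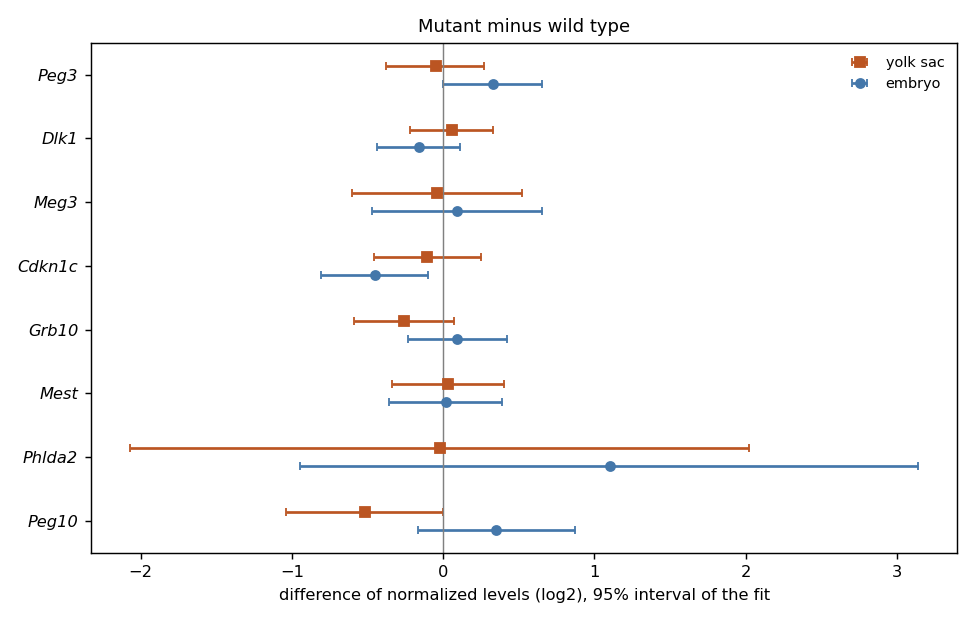
Mutant minus wild type (log2, x axis) for each tested member, with the 95% interval of the fit as a bar, in yolk sac (squares) and embryo (circles). None of the 16 comparisons passed the adjusted test, and in the embryo the Cdkn1c interval, -0.81 to -0.10, lies below 0 while that of Peg3 starts at 0.00.

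Other imprinted genes were counted beside the members. Of 68 listed, 58 had a named probe and 44 were tested. In the yolk sac 1 of 44 rose in mutants and 0 fell, against 1.33% of all genes, with 12 of 44 at an unadjusted p under 0.05, against 20.9% of all genes. Snurf, a paternally expressed gene of the Prader-Willi syndrome region, was the gene that rose. Its log2 level was 9.50 and 9.57 in wild-type yolk sacs and 10.11 and 10.44 in mutant yolk sacs, a difference of 0.74 (SE 0.12, limma adjusted p = 0.0433). This count was 0 in 7 of the alternative settings, among them the replicate block, 5 under median scaling, and 0 to 2 when a library was left out. Snurf differed by 0.10 between embryos (SE 0.12, limma adjusted p = 0.84), and the interaction was 0.64 (SE 0.17, limma adjusted p = 0.114). In the embryo 0 of 44 passed by limma, with 4 at an unadjusted p under 0.05 (12.5% of all genes), and 0 of 44 passed the interaction test, with 9 at an unadjusted p under 0.05 (18.7% of all genes). Between wild-type tissues 16 of 44 were higher and 17 lower in yolk sac (33.2% and 36.2% of all genes), and between mutant tissues 16 were higher and 20 lower (32.8% and 36.5% of all genes).

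The genes whose pattern over the 8 samples lay nearest to each member were found by the root mean square difference of log2 levels after each gene's mean was taken off. For Phlda2 these were Tmprss2, at 0.122, and Slc13a4, at 0.271, where the SD of Phlda2 itself over the samples was 2.59. For Peg10 they were Tnc (0.129) and 4931406C07Rik (0.15), against its SD of 0.707. For Grb10 they were E130308A19Rik (0.0869) and Zeb2 (0.106), against 1.05. For Mest they were Rnf113a1 (0.0635) and Btbd1 (0.0709), against 0.605. For Dlk1 they were Nubp2 (0.0429) and Mia3 (0.0438), against 0.447, and for Meg3 Pnma5 (0.0758) and Tgoln1 (0.109), against 0.411. For Peg3 they were Polr1b (0.0689) and Fancd2 (0.0764), against 0.222, and for Cdkn1c Cemip2 (0.083) and Sema7a (0.0832), against 0.256. No member was among the nearest genes of another member.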

How the data were processed

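RNA from 8 samples was measured on 16 arrays. The deposited signal table holds probe intensity on a linear scale, background subtracted and not scaled between arrays, as its signals below 0 (28.1 to 32.7% per array) and unequal percentiles show. The software is not given in the sources used here. The deposited columns headed as detection p-values hold a score from 0 to 1 that does not follow the signals beside it (rank correlation 0.00157 to 0.0106 per array), while the scores of different arrays correlated with each other at 0.824 to 0.918. The score was taken as high for bright probes, which the sources do not settle, and each array's scores were assigned to its signals in rank order. Detection and background rest on that. The authors' processed log2 values were rebuilt from the signals within 0.02 for 100% of values as 1 shift per array and subtraction of the probe median of the tissue. They carry no tissue difference and served as an alternative.

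Signals were processed with neqc (normexp, offset 16, quantile, log2; limma 3.58.1, R 4.3.3), and repeat arrays were averaged. Probes detected (p under 0.05) on at least 4 of 16 arrays were kept (21193), and the brightest kept probe stood for a gene. A mean per group was fitted (lmFit, eBayes, 4 residual and 3.37 prior degrees of freedom), two-sided, with Benjamini-Hochberg adjustment over 11334 genes at a threshold of 0.05. Steps were tested on simulated data. Between 17382 and 19576 probes were detected per array, repeat arrays correlated at 0.996 to 0.998 over genes, and the number of RNA samples, 2 per group, limits the precision. Spread between conceptuses beyond these 4 is not measured by the p-values.

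By the labels, the embryo and yolk sac of the same number and genotype come from 1 conceptus, so the numbers pair samples between tissues (correlation of deviations 0.04 in wild type, 0.22 in mutant). Wild types and mutants share only a number. For probes not detected in a group, the fold is a bound against the lowest detected signal. The genes named are the 10 members, Igf2, Bcas3, other imprinted genes past the threshold in a genotype comparison and the 2 genes nearest each member in pattern, with undetected markers. The members and lists were chosen with earlier results of these data known. The neighbouring imprinted genes named (Slc22a18, Ddc, Dio3, Rian, Rtl1, Nap1l4, Tspan32, Cd81, Tssc4, Copg2) and the promoter motifs fall outside that rule and were chosen after values and sequences had been seen. The alternatives changed the scaling, background, offset, filter, probe choice, arrays, prior, samples fitted and replicate block.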

Additional observations from a re-analysis of the deposited data

Results flagged for a closer look

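Peg10 was singled out because, in each tissue, both mutants lay on the same side of both wild types, and the side differed between tissues. Samples of both genotypes did not overlap for 47.9% of all genes in yolk sac and 51.9% in embryo. The share of genes on opposite sides was not counted. The interaction value below comes from the same values that flagged the gene, so it adds no separate evidence. In the yolk sac both mutants, at log2 levels of 7.86 and 7.83, lay below both wild types, at 7.99 and 8.74. In the embryo both mutants, at 7.17 and 7.02, lay above both wild types, at 6.64 and 6.86. The difference of the effects was -0.87 on the log2 scale and did not pass the interaction test over all genes (limma adjusted p = 0.206, and 0.0789 to 0.625 over the alternatives, with values from -1.27 to -0.49). The second Peg10 probe was detected on no embryo array and so gives no embryo effect to compare. In the yolk sac its genotypes overlapped, at log2 levels of 6.14 and 5.7 in wild types and 5.96 and 5.65 in mutants. The yolk sac difference of that probe was -0.12 (SE 0.16, limma adjusted p = 0.746 when all kept probes were tested).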

How the results depend on the processing

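No member passed a genotype test of the yolk sac in any setting run. In the embryo and in the interaction the member count was 0 to 1 when a library was left out, the 1 being Phlda2 without wild-type embryo 2, and 0 in the other settings. Between wild-type tissues the count was 5 to 6 with a library left out, and between mutant tissues 4 to 6, against 7 with all. Over the other settings these counts were 5 to 6 and 5 to 8. In wild types Meg3 was lost with no filter (adjusted p = 0.0705) and with only the groups compared (0.0857), and was not tested with probes detected on all 16 arrays. In mutants Meg3 passed with first arrays (0.0238) and only the groups compared (0.00451), Peg3 and Peg10 were lost under median scaling (0.0892 and 0.188), and Cdkn1c was lost with floored signals (0.0667), no filter (0.0669) and first arrays (0.0946).

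For comparisons of mutant with wild type, the fit with the replicate block, where numbers are only shared (correlation of deviations 0.19 in embryo, 0.17 in yolk sac), gave 0 of all genes in yolk sac, 173 in embryo and 0 in the interaction, and the member counts did not change. Between tissues, where the numbers pair the samples, the replicate block changed no member's call.

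Under median scaling the median of all genes was -0.23 in yolk sac and -0.29 in the interaction, against 0 and 0.01 in the main setting. Dlk1 and Mest turned there to -0.08 and -0.15 in yolk sac and to -0.02 and -0.28 in the interaction. Peg3 turned to 0.28 between wild-type tissues. With the mean of all kept probes, Peg3 and Mest in yolk sac were 0.14 and -0.30, Grb10 and Mest in embryo -0.05 and -0.06, and in the interaction 0.03 and -0.24. With the first arrays only, Meg3 in yolk sac was 0.07 and Mest in the interaction 0.00. With the authors' processed log2 values, which moved the median by 0.10 in yolk sac, Peg3, Cdkn1c, Phlda2 and Igf2 were 0.19, 0.21, 0.26 and 0.28 there, and Igf2 was 0.08 in the interaction. With the embryos the series design names, Phlda2 and Igf2 in embryo were -0.90 and -0.01, and Mest and Phlda2 in the interaction -0.03 and 0.88. The cause of each turn was not tested.

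With a library left out, yolk sac values ran from -0.90 to -0.15 for Peg10, -0.45 to -0.07 for Grb10, -0.46 to 0.39 for Meg3, -0.28 to 0.07 for Cdkn1c, -0.21 to 0.26 for Mest, -0.14 to 0.10 for Phlda2 and -0.27 to 0.16 for Peg3. Embryo values ran from -0.53 to 2.72 for Phlda2, -0.08 to 0.11 for Mest and 0.00 to 0.19 for Grb10. Interaction values ran from -1.24 to -0.49 for Peg10, -0.22 to 0.25 for Mest, -2.74 to 0.50 for Phlda2 and -0.55 to 0.30 for Meg3. Tissue values ran from -0.11 to 0.25 for Cdkn1c in wild types and -0.01 to 0.08 for Igf2 in mutants.

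Of all genes, 151 passed in yolk sac (67 higher, 84 lower). The count was 601 under median scaling (25 higher, 576 lower), 11 with floored signals, 239 with an offset of 50, 229 with no filter, 0 with first arrays or only the groups compared, 55 with the authors' values (37 higher, 18 lower), 22 when all kept probes were tested, and 0 to 110 with a library left out. In embryo 241 passed, and 142 did under median scaling, 5 with floored signals, 4 with probes detected on all 16 arrays, 0 with the authors' values, 24 with only the groups compared, 26 with the embryos the design names, and 51 to 206 with a library left out. In the interaction 38 passed, and 2 did with floored signals, 158 with an offset of 50, 0 with probes detected on all arrays, 81 with no filter, 14 with first arrays, 2 with the authors' values, 0 with the design's embryos, 19 with all kept probes, and 0 to 86 with a library left out. With all kept probes, 13748 and 13769 passed between wild-type and mutant tissues. Of the other imprinted genes, 5 passed in yolk sac under median scaling, 0 with floored signals, the mean of kept probes, first arrays, the authors' values, only the groups compared, the replicate block or all kept probes, and 0 to 2 with a library left out. Signal over background limits Meg3, Rtl1 and Plagl1, and in wild-type embryos also Dio3 and Slc22a18.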
